A study of Homo sapiens with 4 samples.

Results

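DEAD-box and DEAH-box RNA helicases were followed in HCT116 cells, a human colorectal carcinoma line, with and without depletion of the RNA-binding protein RBM25. The genes were taken by name from the deposited count tables: protein-coding rows whose symbol is DDX or DHX, then a number and at most one letter. This gave 53 genes of 58735 rows, or of 19951 protein-coding rows. A total of 55 protein-coding symbols have this form, and 2 genes were left out by the rule. By their known roles the 53 genes were divided into 13 splicing helicases, 18 ribosome assembly helicases and 22 other helicases.

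The study sequenced RNA from 4 libraries of this line, 2 that received a control shRNA and 2 that received an shRNA against RBM25. The labels give no other treatment, no time after shRNA delivery and no hairpin sequence, so it is not known whether 1 or several hairpins were used. They do not say whether the 2 libraries of a group came from separate cultures. P-values here rest on the spread of these few libraries, whose source may be technical, and with 2 against 2 an exact permutation test cannot give a p below 0.333. A lower level in bulk RNA can come from fewer cells that make a transcript or from less of it per cell, which cannot be told apart here.

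DEAD-box and DEAH-box proteins share a core of paired RecA-like domains that binds RNA and hydrolyses ATP. DEAD-box enzymes mostly open short duplexes locally or clamp onto RNA, whereas DEAH-box enzymes move along a strand from its 3′ side and are often switched on by G-patch proteins. In the nucleus they drive the rearrangements of the spliceosome and of ribosome precursors, and in the cytoplasm they act in export, translation, decay and the sensing of foreign RNA. RBM25 is itself a splicing regulator that associates with spliceosomal particles.

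The libraries held 15528274 to 16982663 counts on genes, of which the helicases took 0.5999% and 0.5468% in the controls and 0.6681% and 0.6107% after RBM25 shRNA. Levels within a gene are given as CPM, counts scaled to a common library size after TMM normalization. RBM25 itself stood at 155 and 115 CPM in the controls and 44.02 and 35.7 CPM after knockdown. Its log2 fold change was −1.76 ± 0.29 (SE, n = 2 per group, edgeR quasi-likelihood test, Benjamini-Hochberg adjusted p = 0.0195). This call was lost without RBM25 shRNA replicate 1 (adjusted p = 0.0797) or replicate 2 (0.152). Summed FPKM of 5 epithelial markers lay at 839.5 and 1049 in the controls and at 1090 and 1287 after knockdown. Of 5 non-epithelial markers the sums were 3.87 and 6.14 against 3.94 and 4.73, nearly all from COL1A1. The part of these differences in the results below was not tested.

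Replicates of both groups differed along the GC content of the transcripts. Across the 49 helicase genes with enough counts to test, the log2 difference of replicate 2 minus replicate 1 ranged from −0.80 to 0.997 in the controls and from −0.56 to 0.70 after knockdown. Its Spearman correlation with GC content was 0.88 and 0.84, a description over genes that share the same 4 libraries. GC-rich genes such as DHX34 and DDX49 were higher in replicate 2 of both groups, and AU-rich ones such as DDX52 and DDX21 were lower there. The log2 fold change between groups, which averages over replicates, had a correlation of −0.13 with GC across these genes. Fold changes below therefore come from 2 fits of all 16091 genes: with TMM scaling only, and after removal of each library's smooth trend on GC content (the GC correction). The correction lowered the common biological coefficient of variation from 0.252 to 0.144. Fitted to each library, it also took out GC trends between the groups. The correlation of the fold change with GC went from −0.22 to 0.008 over genes tested, and from −0.13 to 0.20 over the helicases. Estimates thus rose for GC-rich genes such as DDX54 (log2 0.16 to 0.42) and DDX49 (0.44 to 0.68). They fell for AU-rich ones such as DHX15 (0.47 to 0.23).

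**Figure D1:**
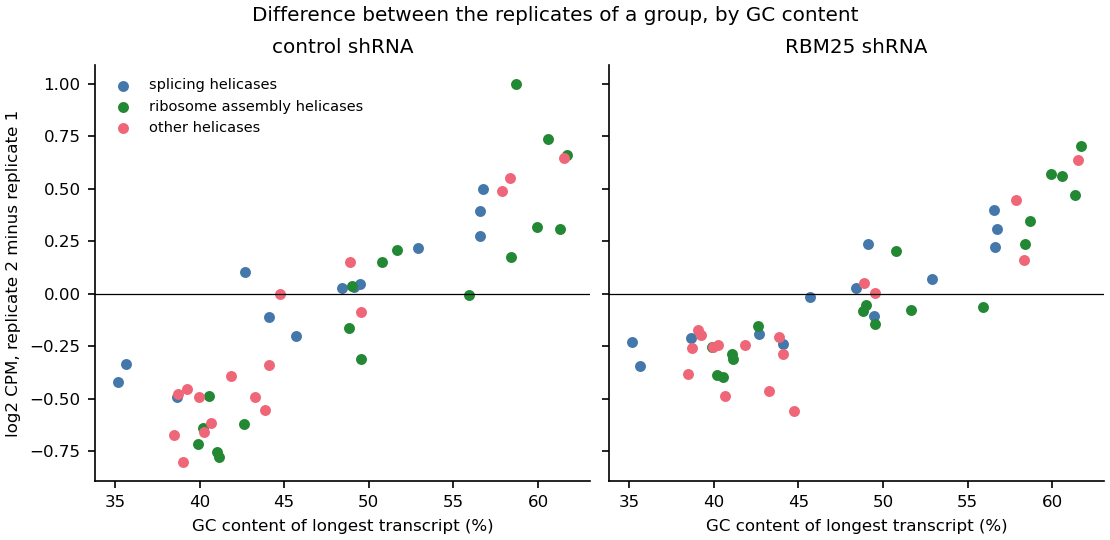
Difference in log2 CPM between replicate 2 and replicate 1 (vertical axis) against GC content in percent (horizontal axis) for 48 helicase genes, in the control and the RBM25 shRNA libraries. Each point is a gene, coloured by role; in both groups the points climb from left to right, so GC-rich genes were higher in replicate 2.

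With TMM scaling only, 0 of 49 tested helicase genes passed an adjusted p of 0.05 (edgeR), beside 3.05% of all genes tested. At an unadjusted p under 0.05 there were 10, of which 6 were higher and 4 lower after RBM25 shRNA, beside 7.92% and 13.5% of all genes. DESeq2 called 2 higher and 1 lower, beside 2.4% and 4.34%, and limma-voom called 0, beside 2.32%. With the GC correction 18 helicase genes rose (36.7%) and 4 fell (8.16%), beside 14.7% higher and 14.3% lower among all genes tested. The median log2 fold change of the helicases was 0.26 with TMM scaling and 0.28 with the correction, beside −0.04 and 0.02 for all genes. In TMM-scaled CPM the 2 groups did not overlap for 22 higher and 8 lower helicase genes (44.9% and 16.3%), beside 23.9% and 27.9% of all genes. After the GC correction these counts were 33 and 12 (67.3% and 24.5%), beside 34.2% and 32.2%.

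The direction of these calls was uneven across roles. Among all genes tested, 14.7% rose and 14.3% fell with the GC correction. Of 18 ribosome assembly helicases 10 rose (55.6%) and 0 fell (1 was lower at an unadjusted edgeR p under 0.05). Of 13 splicing helicases 4 rose (30.8%) and 1 fell (7.69%). Of 18 tested other helicases 4 rose (22.2%) and 3 fell (16.7%), the closest to the shares of all genes. Median log2 fold changes in the same order were 0.49, 0.23 and 0.13 with the correction and 0.42, 0.23 and 0.08 with TMM scaling. Median GC contents were 50.2%, 48.4% and 42.6%, beside 48.7% for all genes tested. No test between the roles was made. With TMM scaling the order of the roles turned without 1 library: without control replicate 1 the medians were 0.315 (ribosome assembly), 0.177 (splicing) and 0.26 (other), and without RBM25 shRNA replicate 2 they were 0.343, 0.35 and 0.18. Leaving out a knockdown library removed most of the calls: without RBM25 shRNA replicate 1 the corrected fit called 4 higher and 2 lower helicase genes, beside 6.38% and 7.75% of all genes. Without RBM25 shRNA replicate 2 it called 8 and 2, beside 8.04% and 9.31%, whereas without a control library it called 25 and 5 (20.8% and 17.2% of all genes) or 23 and 7 (18.4% and 15.6%).

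**Figure D2:**
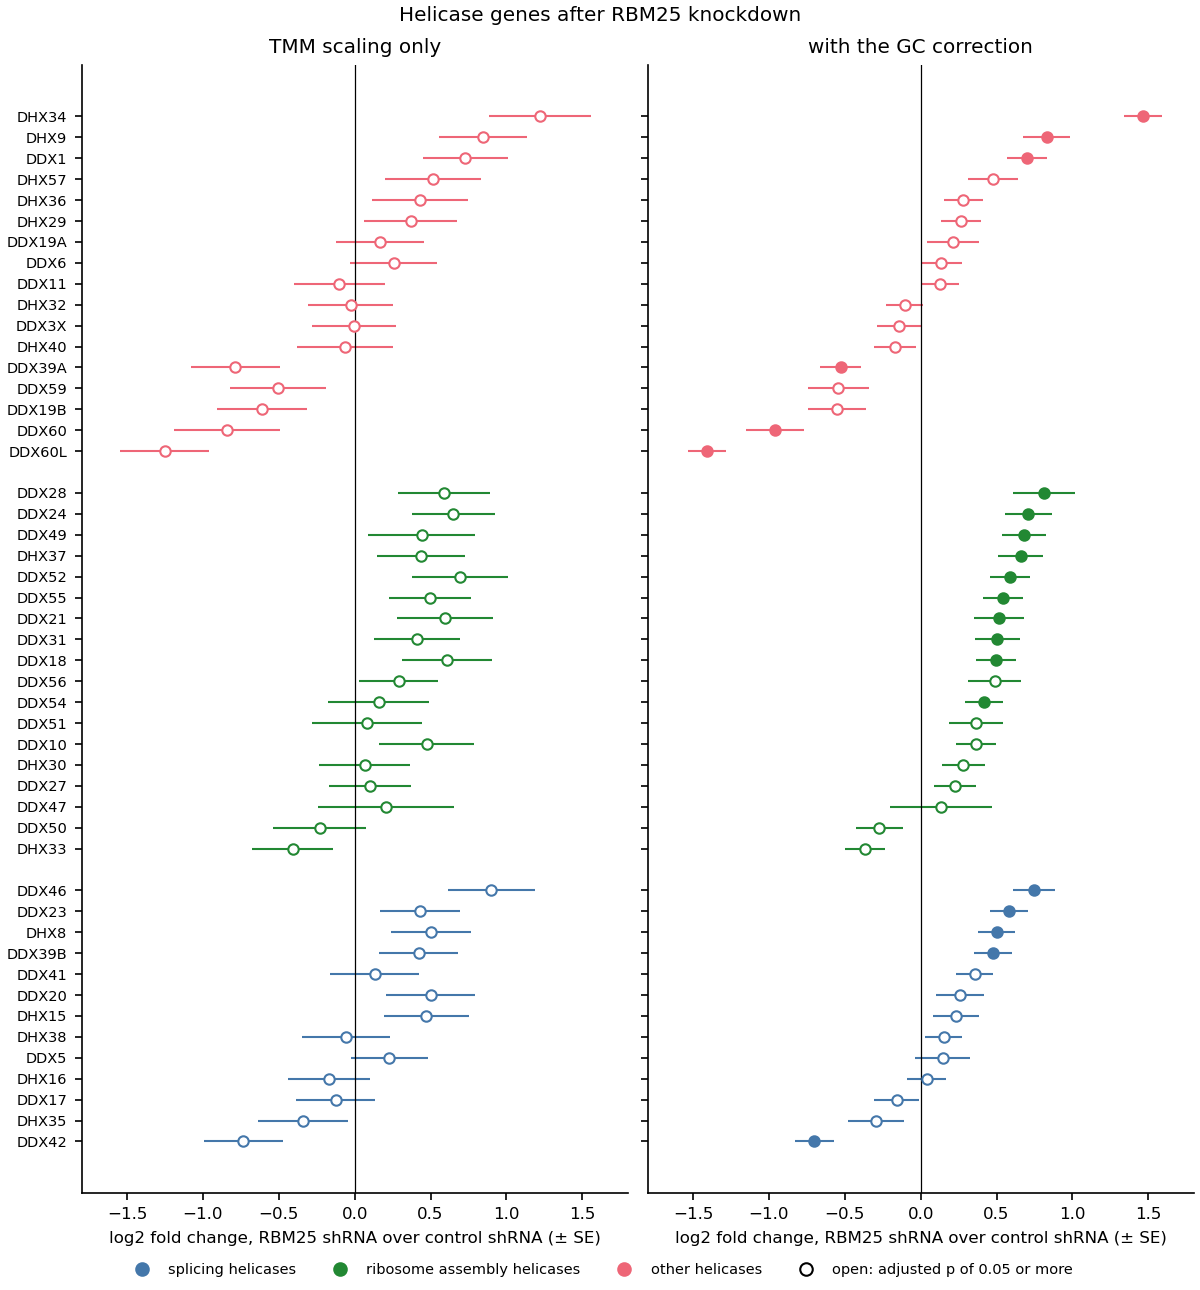
Log2 fold change of RBM25 shRNA over control shRNA (horizontal axes) with its standard error for 48 helicase genes (rows), by TMM scaling only (left) and with the GC correction (right). Filled points passed an adjusted p of 0.05, and no point is filled on the left; on the right most filled points of the ribosome assembly group lie between 0.4 and 0.8, and DHX34 and DDX60L lie farthest out.

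Among splicing helicases, DDX46, the human PRP5 that acts when the U2 particle binds the branch site, was at 218 and 154 CPM in the controls and 372.5 and 321 CPM after knockdown. Both knockdown libraries lay above both control libraries. DDX46 had a log2 fold change of 0.90 ± 0.29 (SE; edgeR adjusted p = 0.119) with TMM scaling and of 0.75 ± 0.14 (adjusted p = 0.00439) with the GC correction. DDX42, a DEAD-box protein that binds the SF3b part of the same U2 particle, moved the other way, at 208 and 212 CPM in the controls and 125 and 127 CPM after knockdown. Its replicates lay close together in each group and the groups were well apart. The change of DDX42 on the log2 scale was −0.73 ± 0.26 (SE; edgeR adjusted p = 0.149), and with the GC correction −0.70 ± 0.13 (adjusted p = 0.00435). DDX46 (ENSG00000145833) lies at chr5:134758771-134855133 and DDX42 (ENSG00000198231) at chr17:63773603-63819317 of GRCh38, both on the plus strand.

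DDX23, the PRP28 helicase of the U5 particle that displaces U1 from the 5′ splice site, was at 71.3 and 83.1 CPM in the controls and 101 and 106.5 CPM after knockdown. Its knockdown libraries both stood above its controls. For DDX23 edgeR gave a log2 fold change of 0.43 ± 0.27 (SE; adjusted p = 0.39) and, GC corrected, of 0.58 ± 0.12 (adjusted p = 0.00792). DHX8, the PRP22 helicase that releases the finished messenger RNA, was at 86.2 and 74.8 CPM in the controls and 115 and 113 CPM after knockdown. DHX8 had a log2 fold change of 0.50 ± 0.27 (SE; edgeR adjusted p = 0.309) with TMM scaling and of 0.50 ± 0.12 (adjusted p = 0.0151) with the GC correction. In DHX8 the groups did not overlap either. DDX39B, also called UAP56, which loads U2 and couples splicing to export, was at 95.0 and 97.97 CPM in the controls and 134 and 124 CPM after knockdown. The change of DDX39B on the log2 scale was 0.42 ± 0.26 (SE; edgeR adjusted p = 0.391), and with the GC correction 0.48 ± 0.13 (adjusted p = 0.0192). A read-through gene spans 29.7% of its exonic bases on the same strand and is listed at 0 counts in every library, so the division of reads between the pair is uncertain.

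The 3 splicing helicases with the highest FPKM, DDX5, DDX17 and DHX15, did not pass in either fit, nor did the much scarcer DDX20. DDX5, a regulator of alternative splicing and transcription, was at 686.5 and 738 CPM in the controls and 889.6 and 779 CPM after knockdown, with each knockdown library above both controls. After the GC correction the groups overlapped, at 622 and 837.9 CPM in the controls and 803.9 and 812 CPM after knockdown. For DDX5 edgeR gave a log2 fold change of 0.23 ± 0.26 (SE; adjusted p = 0.654) and, GC corrected, of 0.15 ± 0.18 (adjusted p = 0.581). With TMM scaling the gap between the groups was smaller than that within the knockdown group. Its paralog DDX17 was at 493 and 457 CPM in the controls and 472 and 399.6 CPM after knockdown, with overlapping groups. DDX17 had a log2 fold change of −0.12 ± 0.26 (SE; edgeR adjusted p = 0.826) with TMM scaling and of −0.16 ± 0.15 (adjusted p = 0.455) with the GC correction. Neither gene of the pair passed. DHX15, the PRP43 helicase that takes spent spliceosomes apart and is activated by G-patch proteins, was at 276 and 206 CPM in the controls and 361.5 and 309 CPM after knockdown. The change of DHX15 on the log2 scale was 0.47 ± 0.28 (SE; edgeR adjusted p = 0.366), and with the GC correction 0.23 ± 0.15 (adjusted p = 0.271). Its groups did not overlap before or after the correction. DDX20, a subunit of the SMN complex that assembles snRNPs, was at 33.5 and 26.5 CPM in the controls and 47.6 and 37.4 CPM after knockdown. For DDX20 edgeR gave a log2 fold change of 0.50 ± 0.29 (SE; adjusted p = 0.36) and, GC corrected, of 0.26 ± 0.16 (adjusted p = 0.24). In both of these AU-rich genes the correction brought the estimate down.

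The remaining 4 splicing helicases, DHX16 (PRP2), DHX38 (PRP16), DDX41 and DHX35 of the catalytic spliceosome, had log2 fold changes from −0.34 (DHX35) to 0.13 (DDX41) with TMM scaling and from −0.29 to 0.36 with the correction (DDX41, adjusted p = 0.0557). DHX16 and DHX38, which act around the catalytic steps, had corrected adjusted p of 0.837 and 0.388. Of the 5 called splicing helicases, DDX46 kept its call in the corrected fit without RBM25 shRNA replicate 1 (adjusted p = 0.0427) and DDX23 without replicate 2 (0.0407), and the other three lost theirs in both.

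Most ribosome assembly helicases were higher after knockdown: 16 of 18 had a log2 fold change above 0 in both fits, beside 47.5% of all genes with TMM scaling and 51.1% with the correction. DDX21, a nucleolar helicase that binds ribosomal RNA and the genes that make it, was the most abundant of them at 462 and 274 CPM in the controls and 611 and 501 CPM after knockdown. The control libraries differed from each other by more than the knockdown libraries did, and both stood below them. DDX21 had a log2 fold change of 0.60 ± 0.31 (SE; edgeR adjusted p = 0.31) with TMM scaling and of 0.52 ± 0.16 (adjusted p = 0.0401) with the GC correction. Its paralog DDX50 was at 49.02 and 31.7 CPM in the controls and 36.25 and 32.5 CPM after knockdown, with overlapping groups. The change of DDX50 on the log2 scale was −0.23 ± 0.31 (SE; edgeR adjusted p = 0.713), and with the GC correction −0.27 ± 0.15 (adjusted p = 0.211).

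Of the helicases that work mainly on the large subunit, DDX24 was at 133 and 107 CPM in the controls and 197 and 178.5 CPM after knockdown. For DDX24 edgeR gave a log2 fold change of 0.65 ± 0.27 (SE; adjusted p = 0.205) and, GC corrected, of 0.71 ± 0.16 (adjusted p = 0.00926). The lower knockdown library stood above the higher control. DDX18 was at 146 and 104 CPM in the controls and 217 and 165 CPM after knockdown. DDX18 had a log2 fold change of 0.61 ± 0.30 (SE; edgeR adjusted p = 0.274) with TMM scaling and of 0.50 ± 0.13 (adjusted p = 0.0199) with the GC correction. The same held for DDX18, with a wider spread. DDX55 was at 34.3 and 35.2 CPM in the controls and 49.98 and 48.1 CPM after knockdown, with replicates close together. The change of DDX55 on the log2 scale was 0.50 ± 0.27 (SE; edgeR adjusted p = 0.322), and with the GC correction 0.54 ± 0.13 (adjusted p = 0.0156). Here the groups were farther apart than the replicates. DDX31 was at 21.95 and 24.4 CPM in the controls and 28.7 and 33.1 CPM after knockdown. For DDX31 edgeR gave a log2 fold change of 0.41 ± 0.28 (SE; adjusted p = 0.439) and, GC corrected, of 0.51 ± 0.15 (adjusted p = 0.0312). Its groups did not overlap. DDX54, a GC-rich gene, was at 67.9 and 113.5 CPM in the controls and 81.7 and 121 CPM after knockdown, where the replicates differed by more than the groups. DDX54 had a log2 fold change of 0.16 ± 0.33 (SE; edgeR adjusted p = 0.826) with TMM scaling and of 0.42 ± 0.12 (adjusted p = 0.0324) with the GC correction. Corrected for GC content its libraries stood at 76.95 and 83.5 CPM in the controls and 105 and 109 CPM after knockdown. After the correction the groups did not overlap. DDX56 was at 87.3 and 86.9 CPM in the controls and 109 and 104 CPM after knockdown. The change of DDX56 on the log2 scale was 0.29 ± 0.26 (SE; edgeR adjusted p = 0.562), and with the GC correction 0.49 ± 0.17 (adjusted p = 0.0597).

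DHX37, DDX52 and DDX49, which work on the small subunit, were also among those called higher with the correction. DHX37, which releases the U3 snoRNA from the early small-subunit precursor, was at 50.85 and 62.99 CPM in the controls and 64.5 and 89.6 CPM after knockdown. For DHX37 edgeR gave a log2 fold change of 0.44 ± 0.29 (SE; adjusted p = 0.426) and, GC corrected, of 0.66 ± 0.15 (adjusted p = 0.0102). The nearest libraries of the 2 groups lay close together. DDX52, the human counterpart of yeast Rok1, was at 79.3 and 48.1 CPM in the controls and 112 and 94.1 CPM after knockdown. DDX52 had a log2 fold change of 0.70 ± 0.31 (SE; edgeR adjusted p = 0.238) with TMM scaling and of 0.59 ± 0.13 (adjusted p = 0.0107) with the GC correction. Its knockdown libraries stood above the controls. DDX49 was at 21.6 and 34.4 CPM in the controls and 28.8 and 47.15 CPM after knockdown, where control replicate 2 exceeded knockdown replicate 1. The change of DDX49 on the log2 scale was 0.44 ± 0.35 (SE; edgeR adjusted p = 0.509), and with the GC correction 0.68 ± 0.15 (adjusted p = 0.00835). After the correction its libraries were at 24.9 and 24.8 CPM in the controls and 37.7 and 42.01 CPM after knockdown, and the groups no longer overlapped.

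DDX28, which acts in assembly of the mitochondrial ribosome, was at 8.85 and 10.04 CPM in the controls and 13.0 and 15.4 CPM after knockdown, the lowest level among the called ribosome helicases. For DDX28 edgeR gave a log2 fold change of 0.59 ± 0.30 (SE; adjusted p = 0.299) and, GC corrected, of 0.82 ± 0.21 (adjusted p = 0.0167). An opposite-strand gene, DUS2, covers 22.5% of its exonic bases, and without strand-aware counting the pair cannot be told apart. DHX30, which also acts on the mitochondrial ribosome, was not called, at log2 fold changes of 0.07 and 0.28 in the 2 fits. Of the rest, DDX10, DDX27 and DDX51 lay between 0.08 and 0.48 with TMM scaling and between 0.23 and 0.37 with the correction, and did not pass (lowest adjusted p = 0.0655, DDX10, corrected). DHX33 was at −0.41 (adjusted p = 0.417) and, corrected, −0.37 (0.0629). DDX47 was listed at 3.795 and 2.01 CPM in the controls and 3.75 and 2.93 CPM after knockdown, but its exons overlap APOLD1 on the same strand over 36.5% of their bases. APOLD1 itself held 174 and 163 counts in the controls and 30 and 34 after knockdown, so the level of DDX47 is uncertain.

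In the corrected fit without RBM25 shRNA replicate 1, DDX49 (adjusted p = 0.0308) was the 1 call left of the 10 ribosome assembly helicases. Without replicate 2, DDX24 (0.0128), DHX37 (0.0237) and DDX28 (0.0297) were left.

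**Figure D3:**
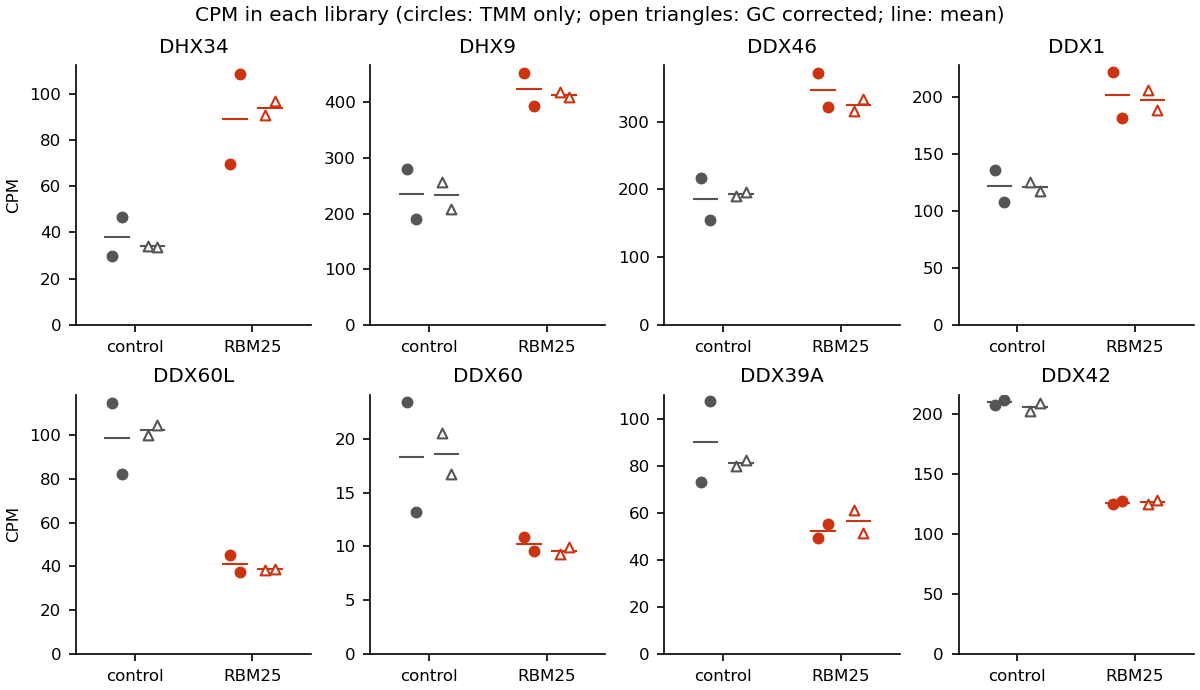
CPM (vertical axes) of 8 helicase genes in each library, grey for control and red for RBM25 shRNA, by TMM scaling (filled circles) and with the GC correction (open triangles), with the group mean as a line. DHX34, DHX9, DDX46 and DDX1 stand higher in both knockdown libraries, DDX60L, DDX60, DDX42 and DDX39A stand lower, and the vertical distance between points of one group shows the replicate spread.

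Of the other helicases called with the correction, DHX34, DHX9, DDX60L and DDX60 had the largest corrected log2 fold changes in size. With 1 library left out these ran from 1.42 to 1.52 for DHX34 and 0.68 to 0.98 for DHX9. For DDX60L they ran from −1.44 to −1.38 and for DDX60 from −1.10 to −0.80. In such fits the group with 1 library has no spread of its own. DHX34, which acts with UPF1 in nonsense-mediated decay of messenger RNA, was at 29.7 and 46.6 CPM in the controls and 69.55 and 108 CPM after knockdown. Knockdown replicate 1 stood above control replicate 2, and in each group replicate 2 was the higher one. With the GC correction the libraries stood at 34.15 and 33.8 CPM in the controls and 90.7 and 96.9 CPM after knockdown, closer within each group than before. DHX34 had a log2 fold change of 1.22 ± 0.34 (SE; edgeR adjusted p = 0.0827) with TMM scaling and of 1.47 ± 0.13 (adjusted p = 0.000139) with the GC correction. The corrected estimate is a 2.76-fold higher level. DHX34 (ENSG00000134815) lies at chr19:47349281-47382704 of GRCh38, plus strand, and none of its 50-base transcript windows recurs in another gene.

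DHX9, or RNA helicase A, which unwinds long duplexes and RNA:DNA hybrids, was at 279.5 and 191 CPM in the controls and 453 and 393 CPM after knockdown, with knockdown libraries clearly above the controls. The change of DHX9 on the log2 scale was 0.85 ± 0.29 (SE; edgeR adjusted p = 0.139), and with the GC correction 0.83 ± 0.16 (adjusted p = 0.00481). DHX9 (ENSG00000135829) lies at chr1:182839369-182887751, plus strand. DDX1, a subunit of the complex that ligates tRNA exons, was at 136 and 108 CPM in the controls and 222 and 182 CPM after knockdown, again without overlap. For DDX1 edgeR gave a log2 fold change of 0.73 ± 0.28 (SE; adjusted p = 0.174) and, GC corrected, of 0.70 ± 0.13 (adjusted p = 0.0048). The call of DDX1 was lost without RBM25 shRNA replicate 1 (corrected, adjusted p = 0.064). The fourth gene called higher is DDX3Y, counted here and not described singly.

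DDX60L and DDX60 are neighbouring genes on chromosome 4, both induced by interferon, and DDX60 is known as an antiviral helicase. DDX60L (ENSG00000181381) lies at chr4:168356735-168537786 and DDX60 (ENSG00000137628) at chr4:168216293-168318807, minus strand. DDX60L was at 114.5 and 82.2 CPM in the controls and 45.03 and 37.5 CPM after knockdown, less in each knockdown library than in either control. DDX60L had a log2 fold change of −1.25 ± 0.29 (SE; edgeR adjusted p = 0.0522) with TMM scaling and of −1.41 ± 0.13 (adjusted p = 0.000157) with the GC correction. Of the tested helicases it had the lowest fold change in both fits. DDX60 was at 23.4 and 13.2 CPM in the controls and 10.85 and 9.56 CPM after knockdown, also without overlap but with control replicate 2 near knockdown replicate 1. The change of DDX60 on the log2 scale was −0.84 ± 0.35 (SE; edgeR adjusted p = 0.203), and with the GC correction −0.96 ± 0.19 (adjusted p = 0.00639). The corrected levels were 2.65-fold lower for DDX60L and 1.94-fold lower for DDX60. With TMM scaling DDX60L narrowly missed the threshold, and its call depended on the method. It was called by DESeq2 (adjusted p = 0.00833), with library totals in place of TMM (0.0434) and with no filter (0.00614) or a filter at 1 CPM (0.0488). It was not called by limma-voom (0.0598), by edgeR with DESeq2 size factors (0.0636) or by limma on log2 FPKM (0.102 and 0.113). Without 1 library the TMM fits ran from 0.000651 (control replicate 2 left out) to 0.407 (RBM25 shRNA replicate 2 left out), and 0.306 without RBM25 shRNA replicate 1.

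The starts of these genes carry the same short element, and the windows are shown because both members were lower together. They run from 110 to 36 bases before the RefSeq start (GRCh38.p14, minus strand), at chr4:168318788-168318862 for DDX60 and chr4:168480528-168480602 for DDX60L, and are written 5′ to 3′ as transcribed. Capitals mark matches to GAAA, any pair of bases and GAAA, the core of the interferon-stimulated response element.
DDX60: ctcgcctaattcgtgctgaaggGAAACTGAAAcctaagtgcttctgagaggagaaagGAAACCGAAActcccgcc
DDX60L: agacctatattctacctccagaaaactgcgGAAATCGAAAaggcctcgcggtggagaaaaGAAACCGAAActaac
Each window holds 2 matches, starting 88 and 53 bases before the start in DDX60 and 80 and 50 bases before it in DDX60L. The proximal match lies in the longest run of letters that the 2 sequences upstream of the RefSeq starts share, GAAACCGAAACT, 12 bases. In GENCODE 29, exons of the annotation cover the last 20 bases of the DDX60 window and 0 of the DDX60L window. The gene model of DDX60 starts at chr4:168318807, so its proximal match lies before the RefSeq start but within that model. The GENCODE gene model of DDX60L begins farther upstream than the RefSeq start, so that its window lies within that model, outside exons.

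RefSeq promoter windows, from 250 bases before to 50 bases after the start, were found for 49 of 53 helicase genes; DDX18, DDX49, DDX52 and DHX33 had no entry. A gene was counted once if any of its windows held a match. Of 8 motifs searched on both strands, none of which contains another, the response element core is in 3 of these 49 genes (6.12%). The third is DHX15. This core is in 4.38% of all 27305 genes with a window and in 3.79% of tested genes. CGGAAG is in 63.3% of helicase genes, beside 22.6% of all genes with a window and 37.1% of tested genes. CACGTG is in 20.4%, beside 8.77% and 12.5%, and TGACGTCA in 10.2%, beside 2.25% and 3.69%. TTCNNGAA is in 10.2%, beside 9.46% and 8.36%. Of 3 longer motifs the NRF1 palindrome is in 2 of the 49 (4.08%), beside 1.52% of all genes with a window and 2.56% of tested genes. The ZNF143 and Kaiso-type motifs are in 0 of the 49. They are in 0.29% and 0.51% of all genes with a window and in 0.61% and 0.95% of tested genes. A match describes these letters and is not evidence of binding.

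DDX39A, a paralog of DDX39B that also serves export, was at 73.4 and 108 CPM in the controls and 49.6 and 55.4 CPM after knockdown, lower in both knockdown libraries. For DDX39A edgeR gave a log2 fold change of −0.79 ± 0.29 (SE; adjusted p = 0.165) and, GC corrected, of −0.53 ± 0.14 (adjusted p = 0.0176). The controls differed more from each other than the knockdown libraries did. This call was lost without RBM25 shRNA replicate 1 (corrected, adjusted p = 0.0597) or replicate 2 (0.25). DDX19B, which remodels exported particles at the nuclear pore, was at 14.04 and 13.2 CPM in the controls and 8.91 and 8.92 CPM after knockdown. DDX19B had a log2 fold change of −0.61 ± 0.30 (SE; edgeR adjusted p = 0.275) with TMM scaling and of −0.55 ± 0.19 (adjusted p = 0.0571) with the GC correction. The groups were apart, but the threshold was not passed. Its near-identical neighbour DDX19A was at 14.5 and 16.1 CPM in the controls and 16.9 and 17.5 CPM after knockdown. The change of DDX19A on the log2 scale was 0.17 ± 0.29 (SE; edgeR adjusted p = 0.781), and with the GC correction 0.21 ± 0.17 (adjusted p = 0.386). Both have knockdown and control libraries that do not overlap, but 30.4% and 22.3% of their 50-base windows occur in other genes, mostly a read-through of the pair, so the split of reads is uncertain.

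DDX3X, a translation factor abundant in this line, was at 537 and 392 CPM in the controls and 495 and 432 CPM after knockdown, with overlapping groups. For DDX3X edgeR gave a log2 fold change of −0.003 ± 0.28 (SE; adjusted p = 0.997) and, GC corrected, of −0.14 ± 0.15 (adjusted p = 0.495). The other members of this group that were tested without a call are DDX6 and DHX36 of RNA decay and quadruplex unwinding, DHX29 of translation initiation, DDX11, a DNA helicase by function, and DDX59, DHX32, DHX40 and DHX57. Their TMM log2 fold changes ranged from −0.51 for DDX59 to 0.52 for DHX57 and their corrected ones from −0.54 to 0.48, with adjusted p of 0.0519 for DHX57 and 0.07 for DDX59 the lowest. DHX40 and DDX11 share 14.4% and 17.7% of their windows with pseudogenes or other copies.

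The 4 genes below the count filter are best known from the germ line. DDX25 had 8 and 9 counts in the controls and 5 and 7 after knockdown, and DDX4 (vasa) had 0 and 1 in each group. DDX43 and DDX53 had 0 counts in all 4 libraries, which allows up to 3 counts, or 0.193 CPM in the shallowest library, for counting error only.

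Levels between genes were compared in FPKM, per length of all exons. DDX5 was first at a mean of 102 FPKM over the 4 libraries, followed by DDX21 (89.99), DHX9 (57.0), DDX17 (44.4), DDX1 (41.4), DHX15 (34.5), DDX3X (28.4) and DDX46 (28.3). DDX5 lay between 89.5 and 122 FPKM and DDX21 between 52.3 and 123, so these neighbours overlap across libraries. In the knockdown libraries DHX9 was at 81.2 and 67.0 FPKM and DDX17 at 47.8 and 38.5, whereas in the controls DHX9 was at 47.7 and 32.4 and DDX17 at 47.5 and 43.8. DDX46 and DDX42, near each other in the controls (22.7 and 16.1 against 23.5 and 23.9), stood at 40.8 and 33.5 against 14.8 and 14.4 after knockdown. Summed over the 18 ribosome assembly helicases the FPKM were 255 and 221 in the controls and 333 and 307 after knockdown. Over the 13 splicing helicases they were 297 and 297 against 371 and 327.5, and over the 22 others 264 and 212 against 328 and 276.

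**Figure D4:**
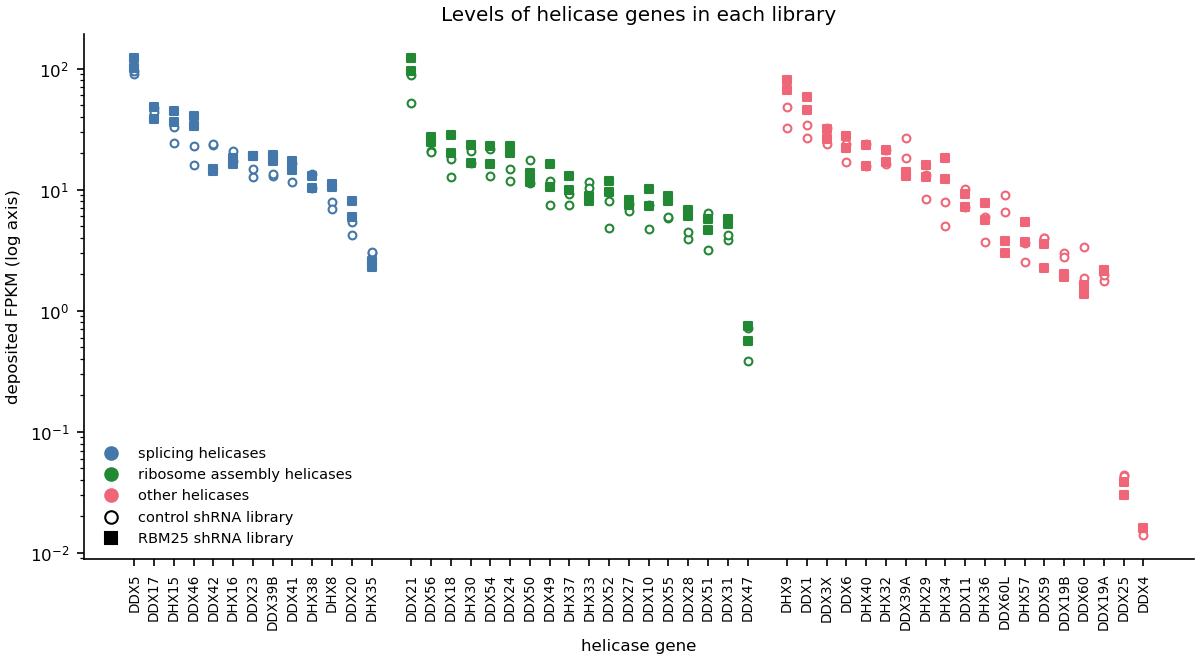
FPKM of helicase genes in each library (vertical log axis), ordered by mean level within each role along the horizontal axis, with control libraries as open circles and RBM25 shRNA libraries as filled squares. DDX5, DDX21 and DHX9 lead their roles. Values listed at 0 cannot be drawn on a log axis and are left out.

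Ratios of FPKM were taken within 5 pairs of related genes, with the gene of the lower fold change on top, so that the direction is set by this choice. The ratio of DDX39A to DDX39B was 1.41 and 2.01 in the controls and 0.676 and 0.813 after knockdown. By these values DDX39A led in the controls and DDX39B after knockdown. The read-through gene named above spans 29.7% of the exonic bases of DDX39B, so the level of DDX39B and the leading gene are uncertain. DDX19B over DDX19A was 1.69 and 1.42 against 0.92 and 0.887, with the shared sequence given above. These are the pairs in which the leading gene differed between the groups. DDX17 over DDX5 was 0.531 and 0.458 against 0.392 and 0.379. DDX50 over DDX21 was 0.198 and 0.216 against 0.111 and 0.121. DDX60L over DDX60 was 2.72 and 3.45 against 2.30 and 2.18. In all 5 pairs the groups did not overlap. The share of other gene pairs without overlap was not taken. Among single genes tested, 51.8% had groups that did not overlap in TMM-scaled CPM. The pairs were named in the rule, with earlier results known, and the ratios carry no test.

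**Figure D5:**
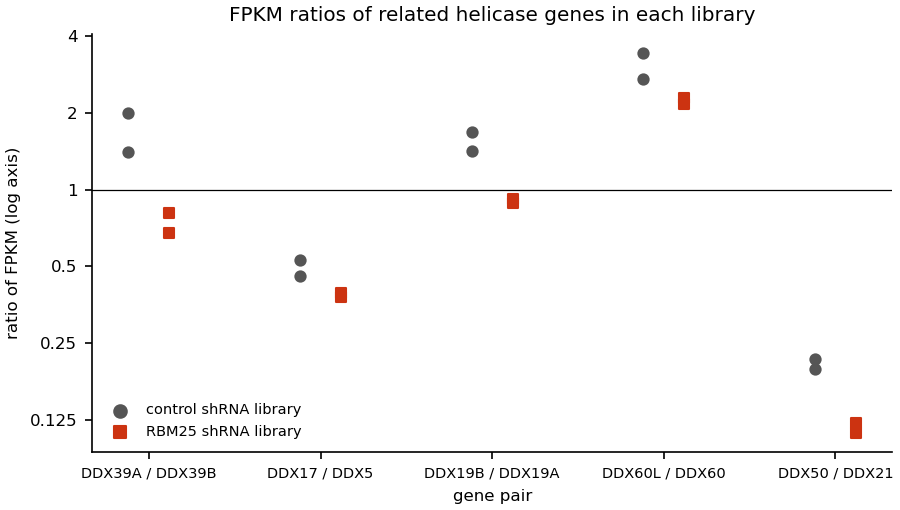
Ratio of FPKM of related helicase genes (vertical log axis) in each library (grey circles, control shRNA; red squares, RBM25 shRNA) for 5 pairs. The squares lie below the circles in each pair, and DDX39A over DDX39B and DDX19B over DDX19A cross 1.

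The wider helicase machinery was taken as 3 lists. Of 23 tested G-patch rows, proteins that activate DEAH-box helicases or regulate splicing, 0 passed in edgeR with TMM scaling, beside 3.05% of all genes. At an unadjusted p under 0.05, 4 were higher and 2 lower, beside 7.92% and 13.5% of all genes. DESeq2 called 2, beside 2.4% of all genes higher and 4.34% lower. With the correction 8 rose (34.8%) and 2 fell (8.7%), beside the 14.7% and 14.3% of all genes. The median log2 fold change was 0.15 with TMM scaling and 0.21 with the correction, beside −0.04 and 0.02 for all genes. GPKOW, the partner of DHX16, stood at −1.33 ± 0.34 on the log2 scale with TMM scaling (edgeR adjusted p = 0.0657) and was at −1.11 with the correction (adjusted p = 0.00259). NKRF, which activates DHX15 in ribosome assembly, was at 0.98 with TMM scaling (adjusted p = 0.0924) and rose by 0.98 with the correction (0.00164). RBM5, a splicing regulator that also activates DHX15, was at −0.84 (edgeR adjusted p = 0.121) and, corrected, at −0.86 (0.00199).

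Of 13 eIF4A helicases with their cofactors 0 passed in edgeR with TMM scaling, and DESeq2 called 1, beside the shares of all genes given above. At an unadjusted p under 0.05, 2 were higher and 1 lower, beside 7.92% and 13.5% of all genes. With the correction 4 rose (30.8%) and 2 fell (15.4%), beside the 14.7% and 14.3% of all genes. Their medians were 0.07 and 0.20. EIF4A2, a DEAD-box helicase outside the naming rule that unwinds leaders of messenger RNA, stood 1.14 higher on the log2 scale with TMM scaling (edgeR adjusted p = 0.0517) and rose by 0.96 with the correction (0.00369). PDCD4, an inhibitor of eIF4A, was at −0.85 with TMM scaling (adjusted p = 0.125) and fell by 1.01 with the correction (0.00203). EIF4G2 was at 0.69 (edgeR adjusted p = 0.218) and rose by 0.60 with the correction (0.0292). Of 14 tested RNA helicases of other families 3 rose (21.4%) and 1 fell (7.14%) with the correction, beside 14.7% and 14.3% of all genes. Without the correction 0 passed in edgeR and 0 in DESeq2. At an unadjusted p under 0.05, 1 was higher and 0 lower, beside 7.92% and 13.5% of all genes. Their medians were 0.11 and 0.22. AQR of the spliceosome was at 0.66 with TMM scaling (edgeR adjusted p = 0.235) and rose by 0.56 with the correction (0.0115). HELZ2 was at −0.74 (adjusted p = 0.294) and, corrected, at −0.55 (0.0138).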

How the data were processed

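RNA-seq libraries of HCT116 cells were analysed, 2 with control shRNA and 2 with RBM25 shRNA, grouped by the labels. The authors deposited 1 table of read counts and 1 of FPKM per library. Per the submitters' processing notes the tools were TopHat2 2.0.9 with Bowtie2 2.0.6, Cuffdiff 2.1.1 and Cufflinks 2.1.1. How reads were counted and with which strand setting is not given in those sources. Gene positions in the deposited count tables equal GENCODE 29 (GRCh38) for all 58735 rows. The deposited FPKM values equal the count over the listed exon length times 1 factor per library.

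Counts were tested with edgeR 4.0.16 (R 4.3.3): filterByExpr, TMM scaling, quasi-likelihood F test, two-sided, Benjamini-Hochberg over all 16091 genes kept, threshold 0.05. CPM are TMM-scaled. The GC correction took each library's deviation from the mean log2 CPM, fitted a loess curve (span 0.5) against GC (longest GENCODE transcript of a gene) and entered it as an offset. GC content was known for 99.95% of tested genes. Libraries held 15528274 to 16982663 counts. Counts of replicates, without the GC correction, differed by more than counting noise (chi-square per degree of freedom 70.9 and 27.7). Each library was counted as a replicate. The excess includes the GC trend and does not show separate cultures, and whether a pair shares its RNA is not known. Counts were also simulated (15697 genes) with a straight GC trend between replicates 1 and 2, the same in both groups. There edgeR recovered 0 of 100 seeded 2-fold changes and 54 of 100 seeded 4-fold changes. With the correction it recovered 72 and 100 and called 10 unchanged genes. The simulation held 200 changed genes and no GC trend between the groups, so it does not show how the correction treats such a trend. Alternatives used DESeq2 1.42.0, limma 3.58.1, other filters and scalings, a replicate block and leaving out each library.

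Members, lists, pairs and the GC correction were chosen with earlier results of these data known. Values in every library are given for 30 members: those past the threshold in either fit, the 4 of each role with the smallest p, the 3 with the highest FPKM, and 5 paralog pairs. Up to 3 genes with the smallest p are named per partner list. A gene that this rule selects is not reported here. Sequences are from RefSeq (GRCh38.p14).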

Additional observations from a re-analysis of the deposited data

How the results depend on the processing

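The 30 helicase genes given in full kept their direction and side of the threshold in 440 comparisons with an alternative (GC-corrected values without 1 library included), passed it newly in 89, fell short in 27 and changed sign in 14. With TMM scaling 0 helicase genes, and 0 in each partner list, were called. The GC-corrected values without 1 library were compared with the GC-corrected fit, and all others with this TMM fit. Those that fell short were therefore all GC-corrected calls, and each was lost without 1 of the knockdown libraries. Library totals moved the median of all genes by −0.11 (log2); they called 1 helicase lower, with medians of 0.15 over all helicases, 0.31 for ribosome assembly, 0.12 for splicing and 0.037 for G-patch proteins. Without a filter 1 rose, 1 fell, and 1 G-patch and 1 eIF4A-list gene were called. A filter at 1 CPM called 1 lower and 1 in the eIF4A list. Among all genes, library totals called 76 higher and 458 lower, no filter 439 and 999, and the 1 CPM filter 130 and 460. DESeq2 called 2 higher, 1 lower, 2 G-patch genes and 1 of the eIF4A list, beside 2.4% and 4.34% of all genes. The GC correction called 18 and 4, beside 14.7% and 14.3% of all genes, with 10 G-patch, 6 eIF4A-list and 4 other-family genes. Its medians were 0.49 (ribosome assembly), 0.21 (G-patch) and 0.20 (eIF4A list). With roles reassigned for uncertain genes the splicing median was 0.42. RBM25 was at −1.46 (adjusted p = 0.0572) by limma on log2(FPKM + 1).

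The labels do not say that equal replicate numbers mark a shared batch. Same-numbered libraries deviated together (correlation 0.466, or 0.138 after the GC correction). With the replicate number as a block, edgeR called 21 helicases higher and 7 lower, beside 16.4% and 19.1% of all genes, and 10 G-patch, 6 eIF4A-list and 6 other-family genes. Of these, 16 of 21 and 4 of 7 are among the 18 and 4 of the GC correction. The block with the GC correction called 23 and 7, beside 3341 higher and 3060 lower of all 16091 genes. It called 12, 8 and 5 in the lists, with medians of 0.49 (ribosome assembly), 0.26 (G-patch) and 0.20 (eIF4A list).

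Leaving out each library in turn moved the number of calls among all genes as well as among the helicases and the lists. Medians ran from 0.26 to 0.34 (all helicases), 0.32 to 0.41 (ribosome assembly), 0.18 to 0.35 (splicing), 0.054 to 0.26 (other helicases), 0.14 to 0.37 (G-patch), −0.024 to 0.38 (eIF4A list) and 0.043 to 0.48 (other families), and RBM25 from −1.96 to −1.53. The same with the GC correction, added after the data were seen, gave 4 to 25 higher and 2 to 7 lower. A group left with 1 library is assumed to vary like the other group. DDX3X, at 0.00 (−0.003) in the main analysis, was at 0.044 with DESeq2 size factors and in DESeq2, 0.024 without a filter, 0.012 in limma-voom and with the block, 0.047 and 0.049 on log2 FPKM, and between −0.213 and 0.243 without 1 library. Without 1 library the sign also changed for DDX17 (−0.248 to 0.021), DDX50 (−0.512 to 0.117), DDX54 (−0.166 to 0.576) and, GC corrected, DDX5 (lowest −0.053). The cause was not tested for any of these.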
